A study of Rattus norvegicus with 56 samples.

Results

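The regions described here are stretches of rat brain chromatin that carried an H3K9ac peak in each of 4 untreated peak lists, lay more than 2 kb from any H3K4me3 peak, and had at most 1 such region as a near neighbour. Overlapping H3K9ac peaks of the 4 lists were joined, which gave 199844 regions, of which 28146 had a peak in all 4 lists. Within 2 kb of an H3K4me3 peak of any of the 4 untreated H3K4me3 lists lay 21159 of these, and the other 6987 were distal. Distal regions closer than a set grouping distance were then put in groups: regions up to 12495 bp apart were joined, and those 12502 bp apart or more were not. Groups of 1 or 2 held 4540 regions, called isolated distal regions below, and larger groups held the other 2447, called clustered. Of the 4540, 3208 stood singly and 1332 formed 666 pairs. The regions were thus chosen by the presence of H3K9ac peaks and the absence of H3K4me3 peaks in the untreated lists, whose values are given as a description. The plasma lists and the H3K27me3 lists had no part in the choice.

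All rats had an intracerebral haemorrhage, that is, bleeding within the brain. Brain tissue of the side of the bleed (ipsilateral) and of the opposite side (contralateral) was taken at 13 and at 21 months of age, with no agent given, and profiled for H3K9ac, H3K4me3 and H3K27me3. For the older rats the series text has 22 months. Ipsilateral tissue of 21-month rats given rat plasma was profiled for H3K9ac and H3K27me3, and the labels mark this plasma 3-month or 22-month, read here as the age of the donors because the series text speaks of young and old plasma. Every group had the haemorrhage, so the contralateral side is the nearest thing to a control, and no uninjured animals were analysed here. Each untreated list pooled 2 ChIP and 2 input libraries and each plasma list used 1 of each, so no value below has a spread between replicates and no test of the groups was possible. Intervals are 95% Wilson intervals for a share and 95% Newcombe intervals for a difference of shares. They cover counting error over regions only, and neighbouring regions are not independent. Both sides of an age share a processing run (a folder named in the file headers), each mark and age has its own, and the plasma lists share another, so age or plasma and the run cannot be told apart. The tissue was not sorted, so fewer cells with a mark and less of the mark in each cell cannot be told apart either.

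Acetylation of lysine 9 on histone H3 marks open, active chromatin. It is strongest around the start sites of transcribed genes, where it lies beside H3K4me3, and it is also found at active enhancers, which act on promoters from a distance and as a rule carry little H3K4me3. H3K27me3 is laid down by the Polycomb repressive complex and covers silenced genes, often over broad domains. Acetylated chromatin away from H3K4me3 is therefore commonly read as candidate enhancers, but no enhancer mark such as H3K27ac or H3K4me1 and no accessibility was analysed here, so the regions are called by their rule. They are given by position, 1-based, on the build of the authors' lists, and without genes or sequence, because a genome and annotation of that build were not used here.

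The name isolated applies only to regions present in all 4 lists. A weaker H3K9ac region, absent from at least 1 of the 4 lists, lay within the grouping distance of 4427 of the 4540 isolated distal regions (97.5%), at a median of 452 bp from them. For 2066 (45.5%) a region near H3K4me3 lay as close. For 95 (2.09%) the 4 lists held no other H3K9ac region of any kind within that distance. These 95 had a median length of 788 bp, and the nearest H3K4me3 peak was at least 4.951 kb away from each.

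One H3K9ac list stands apart in depth. The 13-month ipsilateral list kept 19323327 ChIP tags after 82% were removed as duplicates, while the other 5 H3K9ac lists kept 46299770 to 99213634. It also held the fewest peaks of the untreated lists, 69557 against 93770 to 120348. Without it the same rule gave 7020 isolated distal regions with a median length of 855 bp, and the shares with a plasma peak described below were 24.2% (3-month) and 76.4% (22-month).

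Isolated distal regions were short. Their median length was 1143.5 bp (quartiles 827 and 1577.25 bp, lowest 312, highest 12780), beside 1374 bp for clustered distal regions and 1707 bp for those near H3K4me3. The joined length spans the peaks of all 4 lists. In the median region, peaks covered 466 bp in the 13-month ipsilateral list, 627 bp in the 13-month contralateral, 626.5 bp in the 21-month ipsilateral and 721 bp in the 21-month contralateral list. Exactly 1 peak in each of the 4 lists was found in 2471 regions (54.4%). The summits, the highest points of the strongest peaks, spanned a median of 447.5 bp over the 4 lists, and in 2512 regions (55.3%) all 4 lay within 500 bp.

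The nearest H3K4me3 peak of any of the 4 lists was a median of 13112 bp away (quartiles 5767.75 and 29090.5 bp). Between 2 and 5 kb lay 950 regions (20.9%), between 5 and 10 kb 934 (20.6%), between 10 and 20 kb 1013 (22.3%), between 20 and 50 kb 1155 (25.4%), and beyond 50 kb 484 (10.7%). For 4 regions the distance could not be measured, since their sequence held no H3K4me3 peak. Per kb of distance the regions were densest next to the 2 kb limit, with 317 per kb in the nearest class, then 187, 101 and 38.5 up to 50 kb. Strength did not follow distance: the median of the lowest fold over the 4 lists was 2.57, 2.55, 2.61, 2.56 and 2.55 from the nearest to the farthest class, and the median length went from 1196 bp in the nearest to 1090.5 bp in the farthest class. The region farthest from H3K4me3, on chromosome 2 from 114376147 to 114376647, lay 387.608 kb from the nearest peak, was 501 bp long, and had a fold of 4.81 at 13 months ipsilaterally but 1.79 at 21 months contralaterally. The next were on chromosome 2 from 259639215 to 259640010 (257.168 kb) and on chromosome 6 from 102816847 to 102817689 (250.273 kb). All 3 were under 1 kb long.

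**Figure D1:**
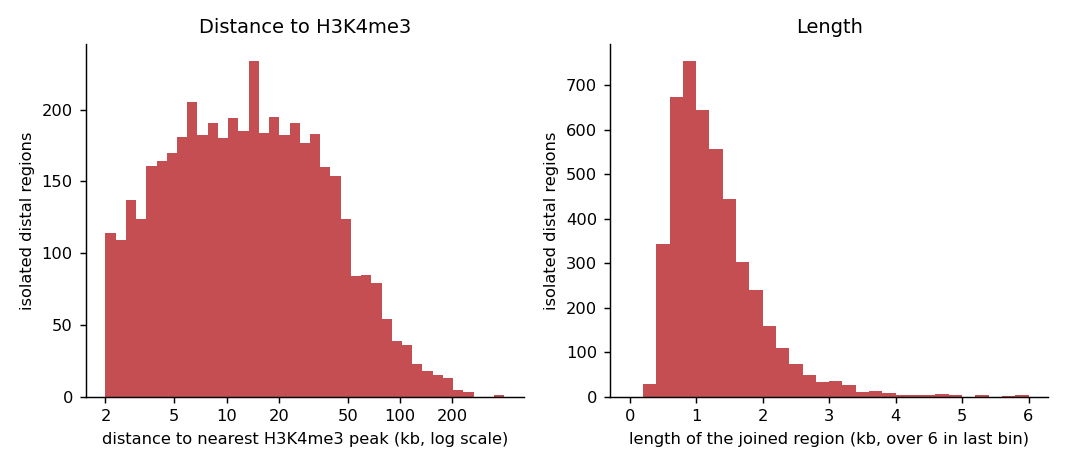
Number of isolated distal regions by distance to the nearest untreated H3K4me3 peak (left, kb on a log scale) and by length of the joined region (right, kb, regions over 6 kb placed in the last bin). Distances spread from 2 kb to beyond 200 kb around a median of 13112 bp, and lengths gather around a median of 1143.5 bp with a thin tail of long regions.

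Regions just inside and just outside the limits of the rule were these. The isolated distal regions nearest to H3K4me3, on chromosome 1 from 233140516 to 233141062 and on chromosome 12 from 11289713 to 11290663, lay 2003 bp from it with folds of 3.34 and 4.51 in the 13-month ipsilateral list. Just left out, at 2000 bp, were regions on chromosome 13 from 99097567 to 99098107 and on chromosome 16 from 19004515 to 19005207, with folds of 2.52 and 3.82 in that list. At the grouping distance, single regions on chromosome 8 from 61581895 to 61583551 and on chromosome 3 from 11926973 to 11928118 had their nearest kept neighbour at 12502 and 12529 bp. A pair on chromosome 10, from 75005754 to 75006910 and from 75019406 to 75021693, was 12495 bp apart.

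Acetylation of the isolated distal regions was weak beside that of regions near H3K4me3. The strength used is the authors' fold, the ratio of ChIP tags at a peak to the local background that the peak caller estimates from the input, and for a region it is that of its strongest peak in the list. The median fold was 4.12 in the 13-month ipsilateral list (quartiles 3.56 and 4.75), 3.59 in the 13-month contralateral (3.04 and 4.26), 3.20 in the 21-month ipsilateral (2.66 and 3.90) and 2.88 in the 21-month contralateral (2.38 and 3.58). For regions near H3K4me3 the medians in the same order were 7.83, 7.59, 6.12 and 4.42, and for clustered distal regions 4.21, 3.84, 3.40 and 2.83. Isolated and clustered distal regions were thus close to each other in every list, and both were lower than regions near H3K4me3.

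Folds of different lists carry no correction for depth or background, so the order of the lists is not a change between ages or sides. Within each list, 45.9%, 59.5%, 58.8% and 45.8% of all its peaks, in the same order, were weaker than the median isolated distal region. Its value, that of the strongest peak of a region, thus lay near the middle of the single peaks of each untreated list, which is not a rank among regions. Folds of 8 or more were rare. They occurred in 17, 9, 8 and 7 isolated distal regions. The lists held 10681, 10152, 5736 and 1215 such peaks, which are single peaks and not regions. Over all 28146 regions the upper quartile of the fold was 10.4, 10.2, 7.44 and 5.34. For clustered distal regions it was 4.99, 4.65, 4.15 and 3.50, near that of the isolated ones. A fold of 8 or more in at least 1 list was found in 39 regions, and in all 4 lists in 0. Across the 4540 regions, Spearman's rho between the folds of the lists was 0.167 to 0.242 for the 6 pairs of lists. The points of a list share its libraries, depth and background. These lists also chose the regions, and the rule left out regions near H3K4me3, whose median folds were higher. No rho was computed for the other classes, so these values have no reference.

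**Figure D2:**
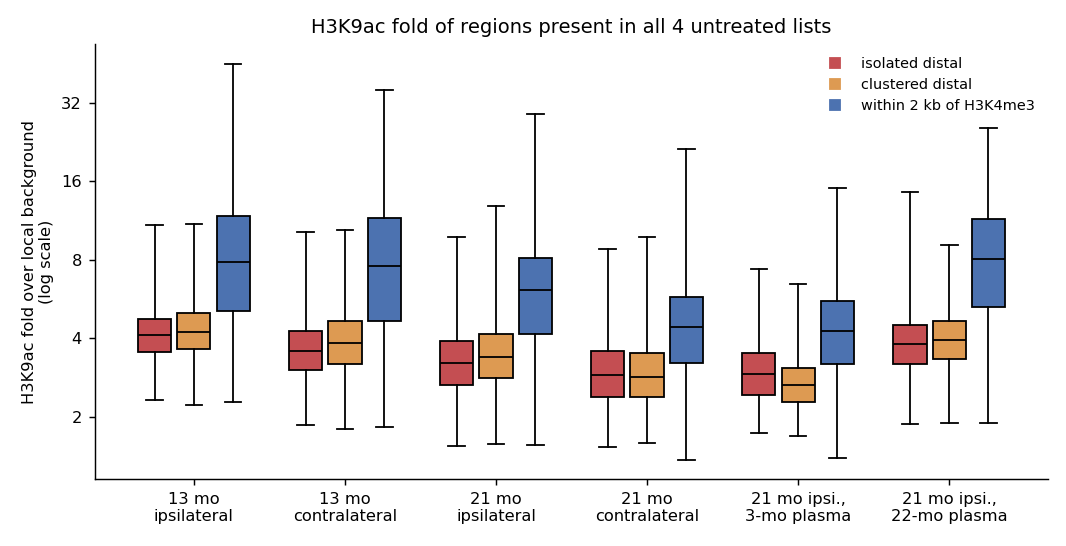
H3K9ac fold over local background (log scale) in the 6 H3K9ac lists for isolated distal, clustered distal and H3K4me3-near regions, each of them present in all 4 untreated lists. Boxes give the quartiles and median, whiskers the lowest and highest region; in the plasma lists only regions with a peak there are drawn. Median folds of isolated distal regions ran from 2.88 to 4.12 in the untreated lists, below the 4.42 to 7.83 of regions near H3K4me3.

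The strongest isolated distal regions were picked by their lowest fold over the 4 lists, so that they are high on both sides and at both ages by choice. On chromosome 1 from 221167933 to 221169603, the fold was 10.9 and 8.49 at 13 months (ipsilateral, contralateral) and 8.26 and 6.88 at 21 months. This region, 3.5 kb from H3K4me3, had the highest lowest fold of all 4540. On chromosome 4 from 174698581 to 174701370 the folds in the same order were 6.52, 6.66, 5.94 and 7.67, and on chromosome 8 from 39839955 to 39842615 they were 6.91, 5.91, 7.28 and 6.11. The list with the highest fold was a different one in each of these 3 regions. A single region on chromosome 4 from 64440665 to 64442728 was 53.128 kb from H3K4me3 and 127401 bp from the nearest other distal region, and had folds of 6.35, 6.38, 5.89 and 6.67. The remaining 4 of the 8 strongest lay on chromosome 11 from 62042707 to 62046982 (6.29, 6.57, 5.79 and 8.06), chromosome 8 from 26325963 to 26329210 (8.24, 5.85, 7.59 and 5.75), chromosome 2 from 207487293 to 207488368 (7.10, 8.30, 7.60 and 5.60) and chromosome 3 from 148176558 to 148179989 (7.73, 10.02, 6.44 and 5.41). Each of the 8 had an H3K9ac peak with both plasmas and no H3K27me3 peak in any of the 6 lists. With plasma their folds were 2.35 to 3.95 in the 3-month list and 3.71 to 7.39 in the 22-month list.

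The longest isolated distal region, on chromosome 1 from 31871647 to 31884426, was 12780 bp long with folds of 9.15, 6.15, 4.04 and 5.31. It lay 2988 bp from H3K4me3 and 4488240 bp from the nearest other distal region. The next were 7999 bp on chromosome 10 from 65029682 to 65037680, 5989 bp on chromosome 10 from 14873477 to 14879465 and 5669 bp on chromosome 7 from 114976599 to 114982267. They were not all strong: the lowest folds of the 4 longest were 4.04, 3.41, 2.63 and 2.66.

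With plasma of 3-month rats, few isolated distal regions had an H3K9ac peak. They were 1389 of 4540 (30.6%, interval 29.3 to 32.0), while 71.1% of all 28146 regions present in the 4 untreated lists had one, and 84.8% of those near H3K4me3. With plasma of 22-month rats, 3889 had a peak (85.7%, interval 84.6 to 86.7), beside 95.6% of all regions and 98.3% of those near H3K4me3. The isolated distal regions were thus below the regions near H3K4me3 with the 3-month plasma (difference -54.2 points, interval -55.6 to -52.8) and less so with the 22-month plasma (-12.7, interval -13.7 to -11.7). With plasma of 3-month rats the clustered distal regions were slightly lower than the isolated ones, at 27.7% (difference of isolated minus clustered 2.89 points, interval 0.647 to 5.09). With plasma of 22-month rats the clustered regions were higher, at 91.1% (difference -5.43, interval -6.93 to -3.88). The small difference from clustered regions with 3-month plasma did not hold across settings. It turned to -6.18 (interval -11.3 to -1.18) with stricter peaks and to -3.63 (interval -8.36 to 1.01) with equal numbers of peaks in every list. In 4 further settings of 14 it stayed above 0 with an interval that included 0, among them the rule without the 21-month contralateral list (0.997, interval -0.806 to 2.78) and without the 13-month contralateral list (1.49, interval -0.473 to 3.43).

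The 2 plasma lists were of unequal length: 50651 peaks with the 3-month and 123863 with the 22-month plasma, from similar numbers of ChIP tags, 57426239 and 56130825. When the 22-month list was held to its 50651 most significant peaks, 55.9% of the isolated distal regions, 66.6% of the clustered and 93.8% of the regions near H3K4me3 still had a peak. At this equal number of peaks the share of isolated distal regions was thus still above the 30.6% with 3-month plasma. Where a plasma peak had to cover at least 50% of the region, the shares of isolated distal regions were 8.28% (3-month) and 57.2% (22-month).

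The gap to regions near H3K4me3 was also found within classes of the lowest fold over the 4 untreated lists. Regions of a class were not matched for their folds in the single lists or for length. Among isolated distal regions whose lowest fold over the 4 untreated lists was under 3, 848 of 3390 (25%) had a peak with 3-month plasma, and the share was 45.5% of 1031 at folds of 3 to 4, 58.5% of 106 at 4 to 5 and 76.9% of 13 at 5 or more. Regions near H3K4me3 in the same classes stood at 58.3%, 84.4%, 96.9% and 99.5%. The differences were -33.2, -38.9, -38.4 and -22.6 points, each with an interval below 0. With 22-month plasma the shares of isolated distal regions were nearly level over the first 3 classes, at 85.3%, 86.3% and 87.7%, and 13 of 13 of the strongest had a peak. Length went with presence as well: for isolated distal regions under 1 kb, of 1 to 1.5 kb and over 1.5 kb the 3-month share was 20.1%, 31.7% and 43.9%, and the 22-month share 77.8%, 88.4% and 93.5%. Clustered regions of these lengths were lower with 3-month plasma, at 15.5%, 22.0% and 39.0%. With 22-month plasma they were higher, at 80.5%, 91.9% and 97.2%. By lowest fold, isolated minus clustered with 3-month plasma was 3.71 points under 3 (interval 1.27 to 6.09) and 6.72 at 3 to 4 (interval 1.70 to 11.7). In the stronger classes the interval included 0. From the class nearest to H3K4me3 to the farthest, the 3-month share of isolated distal regions went from 34.4% to 26.2% and their 22-month share from 88.8% to 81.4%.

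**Figure D3:**
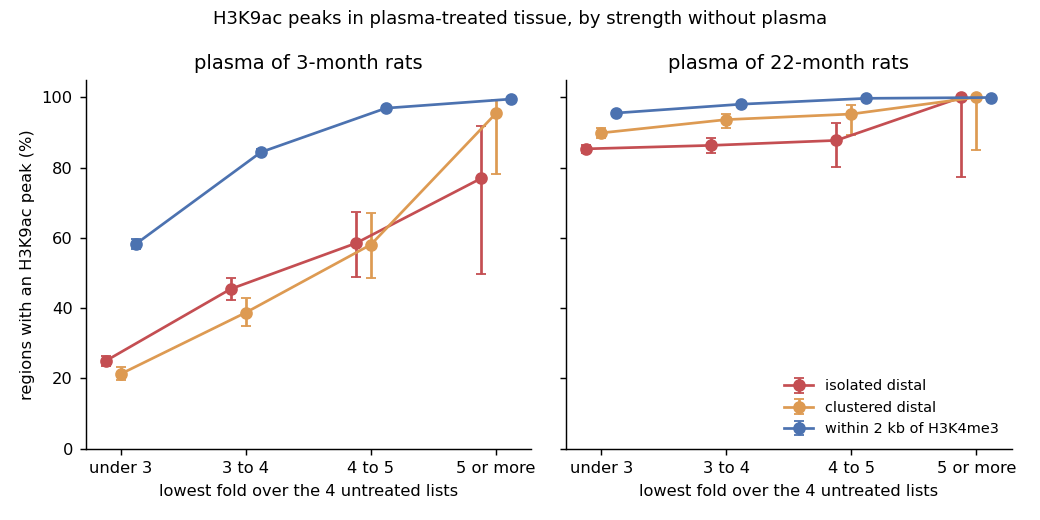
Share of regions with an H3K9ac peak in 21-month ipsilateral tissue given plasma of 3-month rats (left) or 22-month rats (right), by the lowest fold of the region over the 4 untreated lists, with 95% Wilson intervals over regions; points are joined to guide the eye. With 3-month plasma isolated distal regions went from 25% to 76.9% and stayed below regions near H3K4me3 in each class, while with 22-month plasma they were between 85.3% and 100%.

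Taking both lists, 1241 isolated distal regions (27.3%) had a peak with both plasmas, 2648 (58.3%) with that of 22-month rats only, 148 (3.26%) with that of 3-month rats only and 503 (11.1%) with neither. Over all 28146 regions these shares were 70.0%, 25.6%, 1.07% and 3.28%. Regions kept with both plasmas were the longest, with a median of 1388 bp, and those with neither the shortest, with 861 bp. The median of the lowest fold was 2.79 with both, 2.87 with 3-month only, 2.48 with 22-month only and 2.46 with neither. Regions lacking a peak were in part near one: of the 651 without a 22-month peak, 318 (48.8%) had one within 2 kb, and of the 3151 without a 3-month peak, 313 (9.93%). Among regions lacking a peak, those shares were 76.6% and 18.7% for clustered regions and 64.3% and 34.1% for regions near H3K4me3. The isolated ones had the lowest share with each plasma. The rule chose them for having few kept distal neighbours, so this order is not independent of the choice.

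Some strong regions had no peak with either plasma. On the X chromosome from 107409846 to 107411513 the untreated folds were 4.71, 6.75, 4.72 and 6.40 (13-month ipsilateral, 13-month contralateral, 21-month ipsilateral, 21-month contralateral, the order used throughout). On chromosome 4 from 21366978 to 21368192 they were 5.30, 4.66, 4.55 and 5.44, and from 112377110 to 112378000 they were 4.58, 5.32, 5.42 and 4.39. On chromosome 16 from 11427220 to 11428633 they were 7.28, 6.48, 5.65 and 4.28. All 4 were thus above the median isolated distal region in every untreated list.

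The strongest of the 148 regions with a peak only with plasma of 3-month rats lay on the X chromosome from 29704600 to 29706430, with untreated folds of 4.71, 6.07, 5.11 and 4.66 and a fold of 3.95 with the plasma. The next lay on chromosome 5 from 75885286 to 75886911 and on chromosome 1 from 245244774 to 245247457, with folds of 3.81 and 4.41 with that plasma. The strongest of the 2648 with a peak only with plasma of 22-month rats lay on chromosome 9 from 113475980 to 113479996, with untreated folds of 6.77, 7.54, 8.003 and 5.20 and a fold of 6.94 with the plasma. The next lay on chromosome 8 from 117179914 to 117180829 and on chromosome 9 from 84628029 to 84629711, with folds of 3.45 and 2.83 with that plasma. None of these 6 had an H3K27me3 peak in any list.

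The 2 regions of a pair did not always share a call. The gap within a pair was a median of 3156.5 bp (lowest 7, highest 12495). With 3-month plasma both regions had a peak in 71 of 666 pairs, 1 of them in 232 and neither in 363. With 22-month plasma the numbers were 513, 140 and 13. Single and paired regions were near each other in share, 31.6% and 28.1% with 3-month and 84.9% and 87.5% with 22-month plasma.

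H3K27me3 overlapped 918 of the 4540 isolated distal regions (20.2%, interval 19.1 to 21.4) in at least 1 of the 4 untreated lists, counted from 1 bp. Of all 28146 regions 32.2% did, of those near H3K4me3 37.0%, and of clustered distal regions 12.8%. Isolated distal regions were thus between the 2 other classes, below regions near H3K4me3 (difference -16.8 points, interval -18.1 to -15.4) and 7.47 points above clustered ones (interval 5.68 to 9.21). The share was higher than in clustered regions in each length class. Under 1 kb it was 21.8% against 9.66%, at 1 to 1.5 kb 19.9% against 11.6%, and over 1.5 kb 18.4% against 15.4%. By strength, the difference was clearest at lowest folds under 3, with 21.9% against 13.1% (difference 8.85, interval 6.70 to 10.9). In the stronger classes the interval of the difference included 0. Single regions overlapped H3K27me3 more often than paired ones, 22.3% against 15.2% (difference 7.05, interval 4.58 to 9.40).

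The overlap came mostly from 1 list. In the 21-month contralateral list 812 isolated distal regions (17.9%) had an H3K27me3 peak, in the 21-month ipsilateral 415 (9.14%), in the 13-month ipsilateral 127 (2.80%) and in the 13-month contralateral 103 (2.27%). Over all 28146 regions the shares in that order were 30.2%, 21.9%, 15.8% and 15.4%. With plasma, 25 isolated distal regions (0.551%, all regions 8.40%) had one in the 3-month list and 12 (0.264%, all regions 5.79%) in the 22-month list. The untreated lists held 367061, 300668, 117866 and 51805 peaks in the same order, so among them the share was higher in longer lists. The plasma lists held 37241 (3-month) and 51178 (22-month) peaks, and the 22-month list had the lower share of these 2. Its share was also below that of the 13-month contralateral list, which held 51805 peaks. These 2 lists differ in run, age, side, plasma and number of libraries as well, and the cause of the low shares with plasma was not tested. With every H3K27me3 list held to 37241 peaks, and the H3K9ac and H3K4me3 lists likewise evened, 2.26% of the isolated distal regions, 1.30% of the clustered and 22.4% of the regions near H3K4me3 had an H3K27me3 peak in any untreated list. The gap between isolated and clustered regions was smaller there in points, but both shares were far lower and the regions were fewer (1904 and 537).

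**Figure D4:**
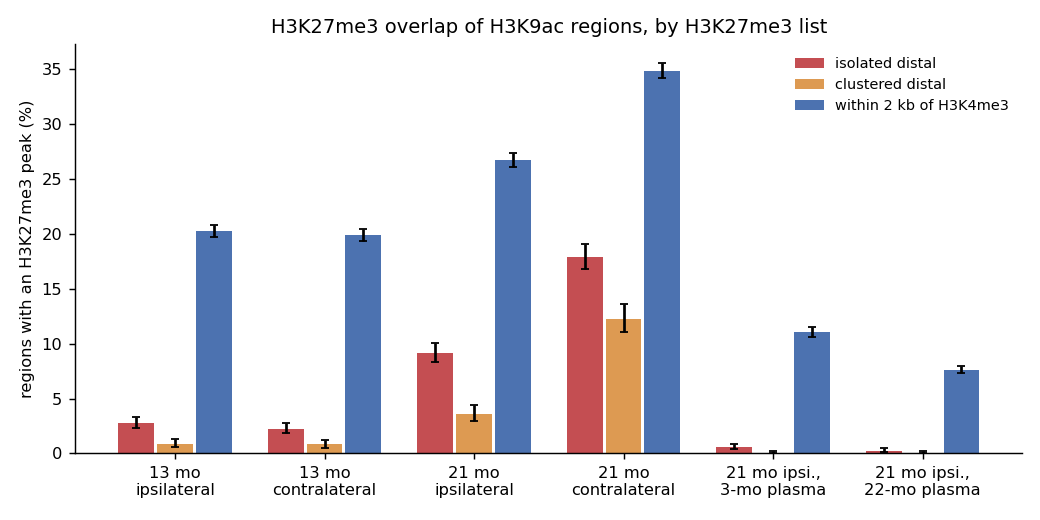
Share of isolated distal, clustered distal and H3K4me3-near H3K9ac regions that overlap an H3K27me3 peak in each of the 6 H3K27me3 lists, with 95% Wilson intervals over regions. Isolated distal regions stood between the other classes in every list, from 0.264% with 22-month plasma to 17.9% in 21-month contralateral tissue; the lists differ in length, from 37241 to 367061 peaks.

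In each of the 6 lists H3K27me3 covered a smaller share of the bases of isolated distal regions than of the effective genome. It covered 7.08% of their bases in the 21-month contralateral list, where it covered 7.28% of the effective genome, and 3.67% against 5.97% in the 21-month ipsilateral list. At 13 months the figures were 0.948% against 2.11% (ipsilateral) and 0.701% against 0.891% (contralateral). Of the bases near H3K4me3 it covered 17.1%, 14.5%, 10.3% and 8.48% in those lists. Of the bases of clustered distal regions it covered 4.07%, 1.23%, 0.227% and 0.174%. In all 6 lists the share was thus smaller in clustered than in isolated distal regions. Where an isolated distal region was touched, a median of 336 to 422 bp of it was covered in the 4 untreated lists. Long H3K27me3 domains, at least 5 kb after joining peaks within 1 kb, held 59 isolated distal regions (1.30%) in the 21-month contralateral list and 38 (0.837%) in the ipsilateral, and at 13 months 3 (0.0661%) ipsilaterally and 0 contralaterally. In the 21-month lists they held 0.531% and 0.327% of clustered regions and 5.56% and 5.60% of regions near H3K4me3, in the same order.

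All 4 untreated H3K27me3 lists marked 56 isolated distal regions (1.23%, all regions 12.6%), and 573 were marked in 1 list only. Acetylation was lower where more lists held H3K27me3: the median of the lowest H3K9ac fold was 2.61 in regions with none, then 2.47, 2.43, 2.38 and 2.22 with 1, 2, 3 and 4 lists. The strongest of the 56 lay on chromosome 6 from 50281730 to 50283054, with H3K9ac folds of 5.35, 4.32, 3.56 and 4.27 and H3K27me3 folds of 2.73, 2.83, 2.19 and 2.32. On chromosome 14 from 14091563 to 14092253 the H3K9ac folds were 4.32, 3.75, 3.93 and 3.33 and the H3K27me3 folds 2.82, 3.31, 2.38 and 5.99. On chromosome 7 from 142879996 to 142882012 the H3K27me3 folds were 2.73, 5.12, 2.90 and 4.66, and on chromosome 17 from 72018773 to 72020009 they were 2.68, 3.85, 4.48 and 5.20. These 4 had an H3K9ac peak with plasma of 22-month rats and none with that of 3-month rats. So did 43 of the 56 (76.8%) and 58.3% of all isolated distal regions, while 10 of the 56 (17.9%) had a peak with 3-month plasma. Whether both marks lay on the same chromosomes or in different cells of the tissue was not tested.

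Regions with H3K27me3 in any untreated list less often had an H3K9ac peak with 3-month plasma, 20.2% against 33.2% of those without (difference 13.1 points, interval 9.98 to 16). The gap was also found within classes of the lowest fold, with 17.9% against 27% at lowest folds under 3 and 26.9% against 48.9% at 3 to 4. With 22-month plasma the order was the other way, 88.8% against 84.9%.

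Isolated distal regions lay on all autosomes and were few on the X chromosome. There were 19 on X, 0.119 per Mb, against 1.72 per Mb on the autosomes, where the density ran from 1.06 on chromosome 2 to 3.67 on chromosome 10. Regions near H3K4me3 were also sparser on X, but less so, with 3.38 against 7.86 per Mb, so that there were 3.51 isolated distal regions per 100 regions near H3K4me3 on X and 21.9 on the autosomes. Single autosomes had between 17.5 (chromosome 16) and 26.7 (chromosome 6). Clustered distal regions numbered 0 on X. In every other setting run, X stood at 0.213 to 6.55 and the autosomes at 10.2 to 30.0. Each of the 6 H3K9ac lists held 7 to 10 peaks on Y, and the number of X copies per cell was not taken into account. The cause of the low number on X was not tested.

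**Figure D5:**
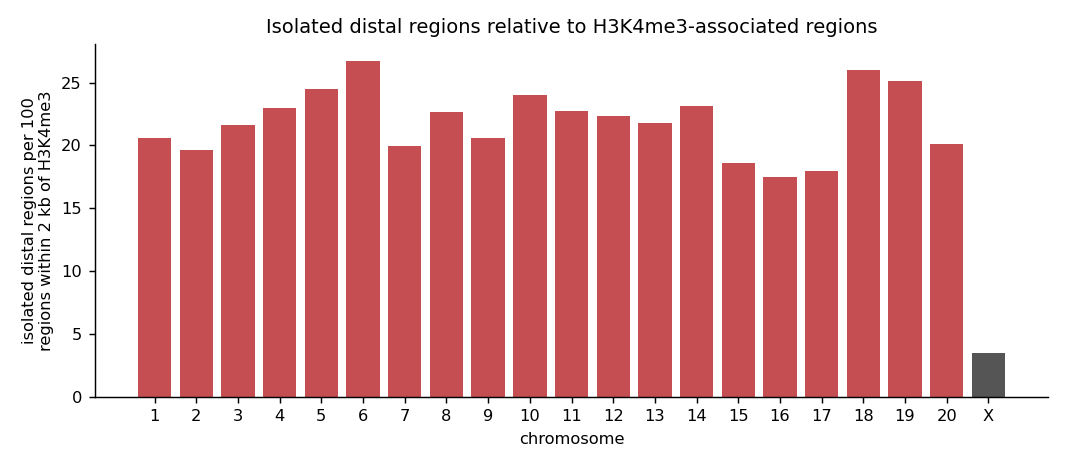
Isolated distal regions per 100 regions within 2 kb of H3K4me3, by chromosome (X in grey, Y with none left out). Autosomes ran from 17.5 to 26.7 and X stood at 3.51.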

How the data were processed

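Peak lists came from ChIP-seq of 56 libraries (28 ChIP, 28 input) in 16 lists. Sonicated chromatin was precipitated and ThruPLEX libraries were run on a NextSeq, per the labels' protocols. Cutadapt, Bowtie2 and HOMER are listed, with no version, per the submitters' processing notes. Peaks were called with MACS 2.1.1.20160309 on tags handled as single-end, keeping 1 tag per position, at a q-value cutoff of 0.05 and an effective genome size of 2.70 Gb, per the file headers. The sources used here do not give the build. The lists reach beyond the genes of GRCr8 on 15 chromosomes (282760941 against 270492571 on chromosome 1), so no genes or sequences were assigned. The authors' deposited lists hold a pileup signal (coverage), not used here, a fold enrichment ratio, the −log10 q-value and the −log10 p-value, the last of these not used here. The labels do not say whether libraries came from separate animals.

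Regions were joined, classed and overlapped (at least 1 bp) with pandas 2.3.3, numpy 2.4.6 and scipy 1.17.1 under Python 3.11.15, drawn with matplotlib 3.10.9, and the rule was tested on simulated lists. A region's fold and −log10 q-value are the highest of its peaks in a list. Distances are gaps between region edges. Named regions, on assembled chromosomes, were the 8 of highest lowest fold, the 4 longest, the 4 strongest with neither plasma peak, the 3 strongest with each plasma alone, the 4 strongest with H3K27me3 in all 4 untreated lists, the 3 farthest from H3K4me3 and those at the limits of 2 kb and 12.5 kb. Regions with the most unequal folds between lists were planned but left out, since folds of different lists have no common scale. The regions, classes and lists were chosen with earlier results of these data known. Length classes, neighbouring weaker regions, peaks near a missing one, H3K27me3 domains and base coverage, the chromosomes and the shortened 22-month plasma list were added after the data were seen.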

Additional observations from a re-analysis of the deposited data

How the results depend on the processing

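Under 84 alternatives to 6 results, 46 stayed the same, 36 moved and 2 turned sign. Stricter untreated H3K9ac peaks (−log10 q of at least 5) left 1710 isolated distal regions of median length 1464 bp, with 36.1% (3-month plasma), 93.0% (22-month plasma) and 18.2% (H3K27me3) overlap, and a difference from clustered regions with 3-month plasma of -6.18 points. Equal numbers of peaks per list (50651 for H3K9ac, 30356 for H3K4me3, 37241 for H3K27me3) gave 1904 regions of 1466.5 bp, with 37.7%, 73.1% and 2.26%, and a difference of -3.63. Asking that 50% of a region be covered gave 8.28%, 57.2% and 7.97%, and a difference of 5.18. The shortened 22-month list gave 55.9%. Joining under 5 kb gave 19.0% with H3K27me3 and 1173 bp, under 25 kb 21.6% and 1114 bp, and single regions alone 22.3% and 1117 bp. Leaving 1 untreated list out of the rule gave 5332 to 7020 regions, lengths of 853 to 934 bp, 23.2% to 30.6% with 3-month plasma, 76.4% to 81.8% with 22-month plasma, 17.6% to 24.6% with H3K27me3 and differences of 0.997 to 2.55. With stricter peaks or equal numbers of peaks there were fewer regions than under the main rule. With 1 untreated list left out of the rule there were more. The causes of these shifts were not tested. In each setting regions near H3K4me3 were above isolated distal regions in all 3 shares. No paired analysis was possible because the libraries of a group were pooled before peak calling and the lists hold no value per library. Absence of a peak is limited by depth and does not show absence of the mark.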

Other observations

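The 19 isolated distal regions on the X chromosome included the strongest region with no plasma peak and the strongest with a peak only with plasma of 3-month rats. A further strong one, named after its values were seen, lay on X from 128384424 to 128385004, 107.596 kb from H3K4me3, with untreated folds of 5.11, 3.75, 5.06 and 4.35 and folds of 3.20 and 3.18 with plasma of 3-month and 22-month rats. With plasma of 22-month rats 11 of the 19 had a peak (57.9%, interval 36.3 to 76.9), and with that of 3-month rats 6 (31.6%, interval 15.4 to 54.0). Counted over distal H3K9ac regions of any untreated list, there were 1018 on X and 146528 on the autosomes, and 1.87% and 4.75% of them had a peak in all 4 lists. Among these X regions 15.4% had a peak in the 13-month ipsilateral list, against 21.4% on the autosomes. The shares were 29.0% and 35.2% in the 13-month contralateral and 34.0% and 39.4% in the 21-month ipsilateral list, and 52.3% and 49.9% in the 21-month contralateral list. X was thus the lower in 3 of the 4 lists.

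The 95 isolated distal regions with no other H3K9ac region within the grouping distance had an H3K27me3 peak in an untreated list in 41 cases (43.2%), beside 20.2% of all isolated distal regions and 32.2% of all regions present in the 4 lists. Of them, 18 (18.9%) had an H3K9ac peak with plasma of 3-month rats and 77 (81.1%) with that of 22-month rats, beside 30.6% and 85.7% of all isolated distal regions. The distance between the summits of the untreated lists of 1 age, ipsilateral against contralateral, was a median of 219 bp at 13 months and 154 bp at 21 months.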
